A study of Mus musculus with 6 samples.

Results

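CD-named surface molecules were compared between mouse MLL-ENL/NrasG12D leukemia cells cultured for 72 h with the PRMT5 inhibitor EPZ015666 and the same cells cultured with its solvent, DMSO. The members are the 47 genes, of 11644 in the table, whose symbol is Cd followed by a number, with at most 1 letter and 1 digit after it; Cd74, Cd80 and Cd86 were left out. The rule used symbols only and no measured value. RefSeq lists 86 mouse symbols of this form, and 46 of them are members. The remaining member, Cd244, is an older symbol of the gene now named Cd244a.

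Both groups carry the MLL-ENL fusion gene and the activated Nras allele NrasG12D, and all 6 libraries are labelled as the same cultured mouse leukemia cells; the labels do not say whether these descend from 1 animal or clone. The 3 inhibitor libraries come from cells given EPZ015666 at 5 µM, with treatment repeated on day 2, and the 3 DMSO libraries from cells given a matching amount of solvent. The series text calls the replicates independent without saying what was repeated, so the p-values measure the spread between these libraries, which may be technical. PRMT5 is an enzyme that places symmetric dimethyl marks on arginine residues. Polyadenylated RNA was sequenced, and 11335948 to 15551525 reads per library were assigned to genes with the inhibitor, against 15505127 to 19197912 with DMSO.

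A CD number (cluster of differentiation) is given to a leukocyte surface antigen when several antibodies recognise it, so the numbers follow the order of discovery and name no family. The molecules behind them include receptors for microbes and lipids, adhesion proteins, inhibitory and activating immunoglobulin receptors, ligands of co-stimulation and four-pass membrane organisers called tetraspanins. Combinations of them are read by flow cytometry to place a blood cell on the path from progenitor to mature myeloid or lymphoid cell. Here their transcripts were counted. Protein at the surface was not measured, and in bulk RNA fewer cells of a type and less RNA per cell cannot be told apart.

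Of the 47 members, 21 rose with the inhibitor, 8 fell and 18 did not pass (limma-trend on log2(normalized count + 1), Benjamini-Hochberg adjusted p under 0.05 over all 11644 genes). A normalized count is the number of reads of a gene divided by a size factor for its library. Over all genes 46.5% were called, 23.6% higher and 22.9% lower with the inhibitor, against 44.7% higher and 17% lower among the members. The median log2 fold change was 0.32 over the members and 0.00 over all genes. Of the called members, 10 rose and 2 fell by 2-fold or more, beside 7.16% and 3.04% of all genes. All inhibitor libraries lay above all DMSO libraries for 20 members and below them for 10, where the shares over all genes were 28.2% and 27.9%. The table holds genes with at least 10 reads in 1 library or more. For 4 members (Cd36, Cd109, Cd200r2 and Cd200r3) only inhibitor libraries reached 10 reads, and for 1 (Cd46) only DMSO libraries did. The presence of these members in the table thus rests on the group where they are higher. Among the other 42 members, counted after the values were seen, 18 rose and 7 fell, or 7 and 1 by 2-fold or more. In 16 of these 42 all inhibitor libraries lay above all DMSO libraries, and in 9 they lay below. Among the 29 members with a mean of at least 100 normalized counts over the 6 libraries, 14 rose and 5 fell, against 22.9% and 25.9% of the genes at that level. The number of fallen members was 5 without inhibitor replicate 1, without inhibitor replicate 2 or without DMSO replicate 2, and 4 without DMSO replicate 3.

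**Figure D1:**
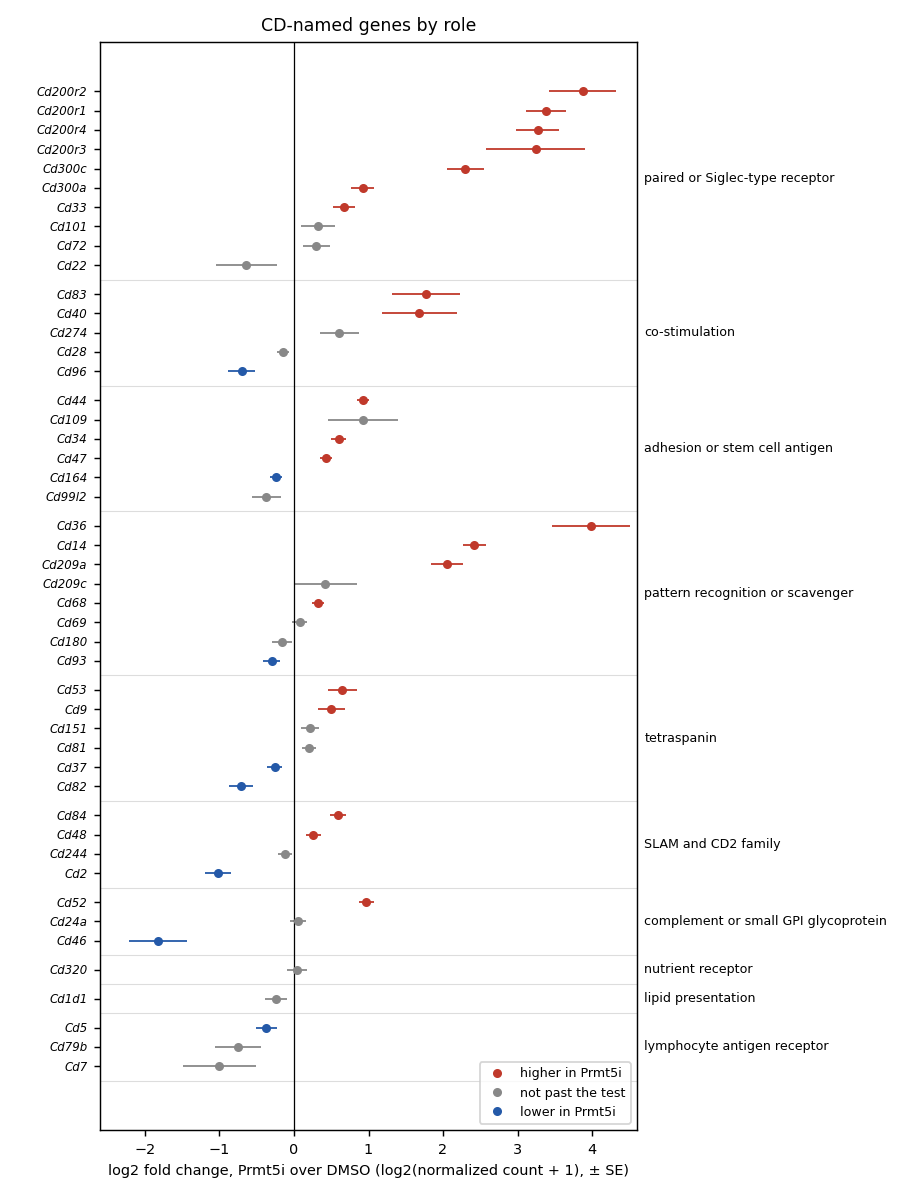
Log2 fold change of each of the 47 CD-named genes, inhibitor (Prmt5i) over DMSO, with its standard error from limma, grouped by role; the x axis is the difference of log2(normalized count + 1). Of the 10 paired or Siglec-type receptors at the top, 7 were higher with the inhibitor and none passed as lower. Without Cd200r2 and Cd200r3, which reached 10 reads with the inhibitor only, 5 of 8 were higher, beside 23.6% of all genes.

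CD200R1 is an inhibitory receptor of myeloid cells that binds CD200, and its mouse relatives CD200R2, CD200R3 and CD200R4 are activating-type receptors that signal through the adaptor DAP12. Their genes lie side by side on mouse chromosome 16 and rose together. The promoters of Cd200r4, Cd200r2 and Cd200r3 are shown because these neighbours moved together, and those of Cd300a and Cd300c because they belong to the other paralog cluster that rose. Reference annotation also places starts of Cd200r4, Cd200r3, Cd300a and Cd300c upstream of the ones used here. Each sequence is the RefSeq window from 250 bases before to 50 bases after the annotated start (GRCm38.p6), 5′ to 3′ on the strand of the gene. Capitals mark 3 motifs searched on both strands: GAGGAA, the core bound by the myeloid factor PU.1, TTNNGNAA, a loose C/EBP motif, and TGANTCA, an AP-1 motif. Matches that overlap run together in the capitals.
Cd200r4 (chr16:44820478-44820777, plus strand): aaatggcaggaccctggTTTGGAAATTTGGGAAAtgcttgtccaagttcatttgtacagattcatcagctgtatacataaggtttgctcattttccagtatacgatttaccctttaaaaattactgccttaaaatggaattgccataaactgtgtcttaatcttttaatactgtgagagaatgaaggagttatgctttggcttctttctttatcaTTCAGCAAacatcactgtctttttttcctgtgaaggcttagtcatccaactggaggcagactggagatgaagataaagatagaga
Cd200r2 (chr16:44866847-44867146, plus strand): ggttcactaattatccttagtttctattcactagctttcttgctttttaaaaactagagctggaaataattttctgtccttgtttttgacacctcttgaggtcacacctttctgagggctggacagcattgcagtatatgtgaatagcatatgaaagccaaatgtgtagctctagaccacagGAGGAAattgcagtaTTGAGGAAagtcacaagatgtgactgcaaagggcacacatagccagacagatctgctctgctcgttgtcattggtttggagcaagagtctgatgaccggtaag
Cd200r3 (chr16:44943428-44943727, plus strand): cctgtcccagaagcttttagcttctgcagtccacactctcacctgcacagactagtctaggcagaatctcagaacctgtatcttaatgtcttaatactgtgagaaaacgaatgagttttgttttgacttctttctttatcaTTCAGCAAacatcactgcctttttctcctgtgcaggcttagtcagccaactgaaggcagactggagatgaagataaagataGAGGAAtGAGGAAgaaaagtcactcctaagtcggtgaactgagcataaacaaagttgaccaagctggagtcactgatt
Cd300a (chr11:114889791-114890090, plus strand): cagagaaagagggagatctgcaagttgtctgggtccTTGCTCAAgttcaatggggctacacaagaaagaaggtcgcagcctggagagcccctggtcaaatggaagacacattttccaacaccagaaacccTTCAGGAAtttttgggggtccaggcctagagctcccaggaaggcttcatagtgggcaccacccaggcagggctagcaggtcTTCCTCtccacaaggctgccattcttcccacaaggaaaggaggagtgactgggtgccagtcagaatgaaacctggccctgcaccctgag
Cd300c (chr11:114960458-114960757, minus strand): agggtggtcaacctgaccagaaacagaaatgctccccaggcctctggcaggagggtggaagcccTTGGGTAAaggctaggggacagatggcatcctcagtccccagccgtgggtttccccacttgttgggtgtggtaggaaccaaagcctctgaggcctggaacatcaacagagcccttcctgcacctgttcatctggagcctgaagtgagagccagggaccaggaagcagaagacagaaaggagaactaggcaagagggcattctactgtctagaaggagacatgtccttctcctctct
The Cd200r4 and Cd200r3 windows align over 156 bases with 140 identical, or 89.7%, and share an unbroken run of 32 bases. The other 9 pairs of these windows share no identical run longer than 9 bases. Cd200r4 holds 4 TTNNGNAA matches and no GAGGAA, whereas Cd200r2 and Cd200r3 each hold 2 GAGGAA and 1 TTNNGNAA. Cd300a holds 1 GAGGAA and 2 TTNNGNAA, Cd300c holds 1 TTNNGNAA, and no window of the 5 holds TGANTCA. Windows of 33 of the 47 members were searched, and Cd200r1 was not among them. Of these windows 15 hold GAGGAA, 17 TTNNGNAA and 3 TGANTCA. Over 27025 genes with a window, whether measured here or not, the shares were 28.3%, 40.7% and 7.93%. A match describes these letters and does not show that a factor binds.

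Cd200r1 had 228, 268 and 322 normalized counts in the inhibitor libraries, against 17.1, 40.4 and 22.6 in the DMSO libraries. Every inhibitor library stood far above every DMSO library. The rise was 10.2-fold, with a log2 fold change of 3.38 ± 0.27 (SE; limma adjusted p = 2.34e-06). Cd200r4 had 614, 734 and 733 normalized counts with the inhibitor and 41.6, 128 and 66.8 with DMSO. It rose 8.82-fold (log2 fold change 3.27 ± 0.29, limma adjusted p = 5.99e-06), and again the groups did not overlap. In DMSO replicate 2 both genes stood above the other DMSO libraries, and without that library the log2 fold changes were 3.71 for Cd200r1 and 3.69 for Cd200r4. Cd200r2 had 30.6, 46.1 and 31.2 normalized counts with the inhibitor and 0.815, 3.23 and 0.982 with DMSO (limma adjusted p = 3.78e-05). It rests on 6 reads over the 3 DMSO libraries: the rise of 21.5-fold became 40.1-fold without DMSO replicate 2. Cd200r3 had 31 reads over the inhibitor libraries and 1 over the DMSO libraries, a ratio of 41.2 with a 95% counting interval of 6.86 to 1678 (exact, for counting error only; limma adjusted p = 0.0019). Shared sequence among the genes is limited. Of the 50-base stretches in their transcripts, 1.2% (Cd200r1), 4.94% (Cd200r4), 4.35% (Cd200r2) and 2.69% (Cd200r3) also occur in transcripts of other genes.

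The chromosomal neighbours of the CD200 receptors were examined within 200 kb. Beside the 4 receptors, 4 genes were measured there, of which 2 rose and none fell, where 23.6% of all genes rose and 22.9% fell. Gtpbp8 rose with a log2 fold change of 0.60 ± 0.13 and Ccdc80, with means of 24 normalized counts with the inhibitor and 6.25 with DMSO, by 1.87 ± 0.38. Slc35a5 (0.21 ± 0.12) and Atg3 (0.20 ± 0.10) did not pass. DAP12, the adaptor that the activating receptors need, is encoded by Tyrobp. It had 8609, 10113 and 11868 normalized counts with the inhibitor and 7772, 7832 and 7428 with DMSO, a log2 fold change of 0.40 ± 0.11 (limma adjusted p = 0.0139, and 0.0546 without inhibitor replicate 2); it is no member and was singled out after its values were seen.

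The CD300 receptors, lipid-binding immunoglobulin receptors of myeloid cells, also rose. CD300A carries inhibitory tyrosine motifs and binds phosphatidylserine. Its transcript had 2898, 3397 and 3529 normalized counts with the inhibitor and 1413, 2299 and 1565 with DMSO. The inhibitor libraries all lay above the DMSO libraries, of which replicate 2 was the highest. Cd300a rose 1.86-fold (log2 fold change 0.92 ± 0.15, limma adjusted p = 0.000479). Cd300c had 80.7, 97.9 and 136 normalized counts with the inhibitor and 15.5, 20.2 and 25.5 with DMSO, a rise of 5.13-fold (2.30 ± 0.25, limma adjusted p = 2.68e-05). Between and beside these genes on mouse chromosome 11 lie relatives with longer symbols that the rule does not take. Beside Cd300a and Cd300c, 7 genes were measured within 200 kb, of which 4 rose and 1 fell (23.6% and 22.9% over all genes): Cd300lb (0.46 ± 0.10), Cd300ld (1.35 ± 0.17) and Cd300lf (0.72 ± 0.26) rose on the log2 scale with Ttyh2 (0.51 ± 0.10), and Rab37 fell by 0.82 ± 0.15. The groups overlapped for Cd300lf, and its call (limma adjusted p = 0.04) was lost without inhibitor replicate 1 (0.068), 2 (0.108) or 3 (0.114), without DMSO replicate 1 (0.141) or 3 (0.0766), and with edgeR (0.0877).

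**Figure D2:**
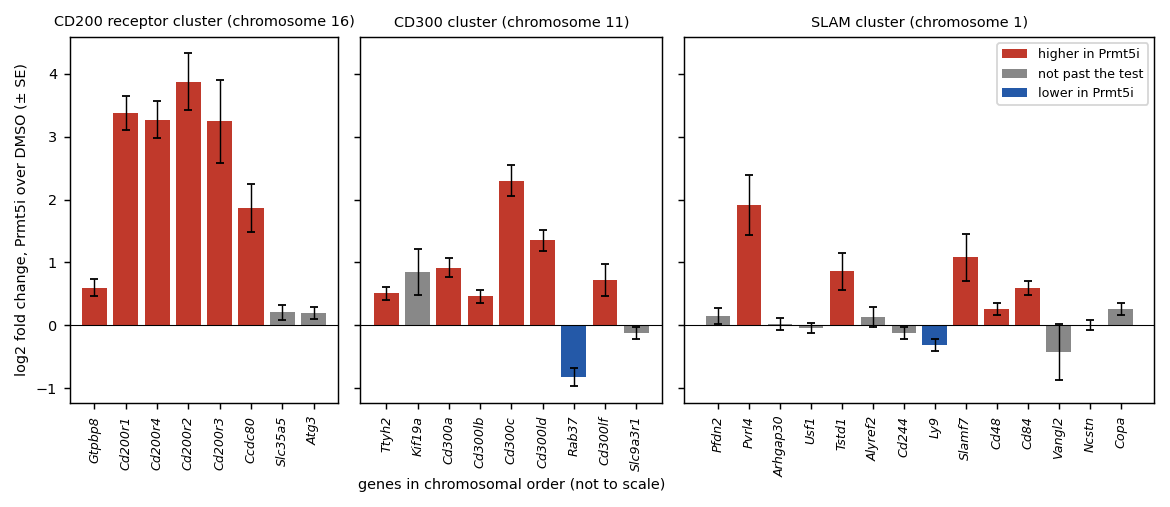
Log2 fold change, inhibitor (Prmt5i) over DMSO, with its standard error, of each measured gene within 200 kb of the CD200 receptor, CD300 and SLAM genes, in chromosomal order and not to scale. The 4 CD200 receptor genes stand above 3 on the log2 scale, and the SLAM genes are mixed in direction.

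The remaining paired or Siglec-type receptors changed less. Cd33 encodes Siglec-3, a sialic-acid-binding receptor of myeloid cells and a target antigen in human acute myeloid leukemia. It had 856, 1046 and 1108 normalized counts with the inhibitor and 484, 767 and 661 with DMSO, without overlap. The rise was 1.57-fold (log2 fold change 0.67 ± 0.15, limma adjusted p = 0.00367). Cd101 (37.1 ± 5.17 normalized counts with the inhibitor and 29.5 ± 3.35 with DMSO; SD, n = 3 each), Cd72 (89.2 ± 11.8 and 72.3 ± 9.72) and the B-cell Siglec Cd22 (11.9 ± 6.11 and 17.9 ± 4.6) did not pass (limma adjusted p = 0.271, 0.185 and 0.219). Of the exon length of Cd72, 41.6% overlaps another coding gene, so its reads are less certain. Of the 10 paired or Siglec-type receptors 7 rose and none fell. Without Cd200r2 and Cd200r3, which reached 10 reads with the inhibitor only, 5 of 8 rose, with a median log2 fold change of 0.80, beside 23.6% of all genes.

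Among 8 pattern recognition, scavenger and lectin receptors, 4 rose and 1 fell, or 3 and 1 of 7 without Cd36, which reached 10 reads with the inhibitor only. Over all genes the shares were 23.6% and 22.9%. Cd14, the co-receptor that passes bacterial lipopolysaccharide to TLR4, had 385, 534 and 385 normalized counts with the inhibitor and 95.4, 71 and 73.6 with DMSO. The groups were far apart, and the rise was 5.43-fold (log2 fold change 2.42 ± 0.16, limma adjusted p = 7.08e-07). Cd209a, a mouse relative of the dendritic cell lectin DC-SIGN, had 104, 109 and 132 normalized counts with the inhibitor and 25.3, 33.9 and 22.6 with DMSO. It rose 4.23-fold (2.05 ± 0.21, limma adjusted p = 1.47e-05), again without overlap. Its relative Cd209c was low, at 17.3 ± 8.75 with the inhibitor and 12 ± 4.32 with DMSO (SD, n = 3 each), and did not pass (limma adjusted p = 0.43). Cd36, a scavenger receptor that takes up fatty acids and oxidised lipoprotein, had 15.3, 23.8 and 31.2 normalized counts with the inhibitor and 0.815, 0.807 and 0 with DMSO. These are 61 reads over the inhibitor libraries and 2 over the DMSO libraries, a ratio of 40.5 with a 95% counting interval of 10.7 to 342 (limma adjusted p = 8.61e-05). The gene was thus near the floor of detection with DMSO and stayed low with the inhibitor.

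Cd68 encodes macrosialin, a glycoprotein of late endosomes and lysosomes that is a histological marker of macrophages. It had 1095, 1228 and 1199.9 normalized counts with the inhibitor and 983, 932 and 911 with DMSO. The groups did not overlap, but the rise was small, 1.25-fold (log2 fold change 0.32 ± 0.08, limma adjusted p = 0.00809). Cd93, a receptor with a lectin-like domain found on early hematopoietic progenitors and endothelium, moved the other way. It had 13999, 13554 and 12775 normalized counts with the inhibitor and 15324, 18253 and 16048 with DMSO, and fell 1.23-fold (log2 fold change -0.30 ± 0.11, limma adjusted p = 0.0363). That call was lost without DMSO replicate 2 (limma adjusted p = 0.141), DMSO replicate 3 (0.0756), inhibitor replicate 2 (0.108) or inhibitor replicate 3 (0.0751). The activation antigen Cd69 had 2793, 3211 and 3318 normalized counts with the inhibitor and 2926, 3248 and 2635 with DMSO, with overlapping groups (limma adjusted p = 0.518). Cd180, a Toll-like receptor homologue, had 507 ± 52.1 with the inhibitor and 568 ± 97.1 with DMSO (SD, n = 3 each; limma adjusted p = 0.327).

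**Figure D3:**
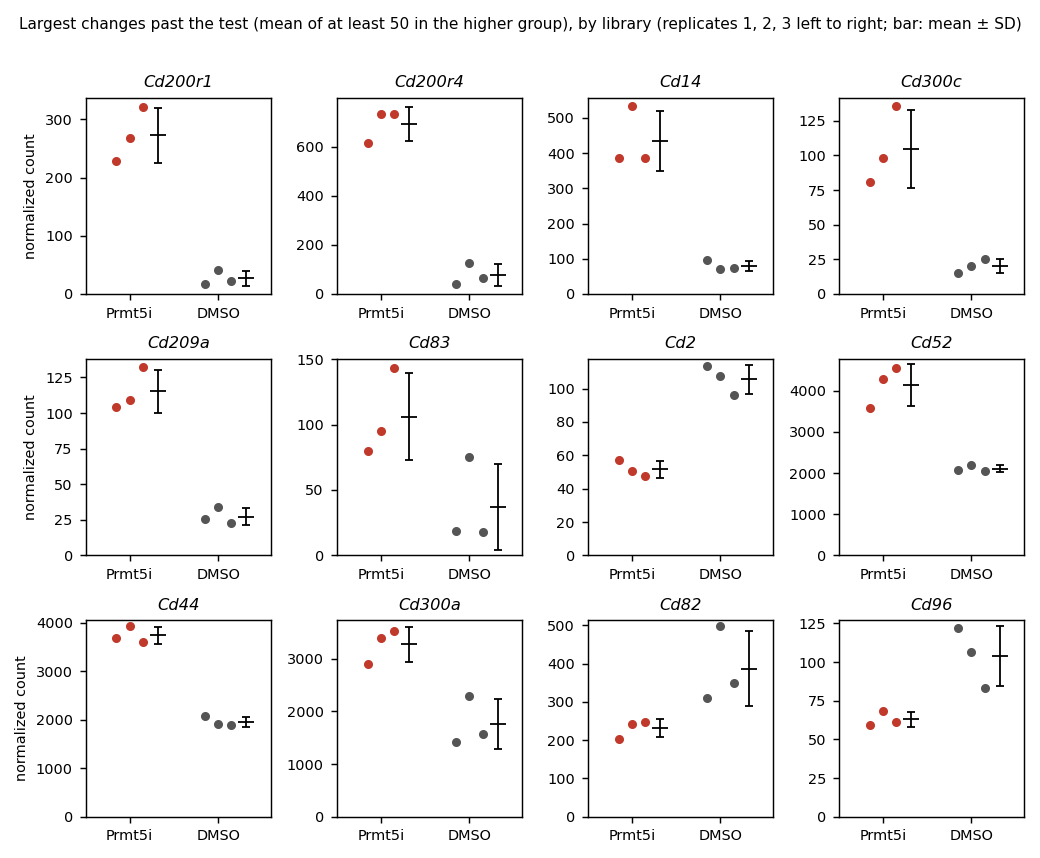
Normalized count in each library for the 12 CD-named genes with the largest log2 fold changes among those past the test, with a mean of at least 50 in the higher group and no overlap; inhibitor (Prmt5i) libraries are left of DMSO libraries, and the bar is the mean ± SD (n = 3). Cd83 in DMSO replicate 2, at 75.1, sits close to the inhibitor libraries, the lowest of which is 79.7.

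Of 6 adhesion molecules and progenitor antigens, 3 rose and 1 fell, where 23.6% of all genes rose and 22.9% fell. Cd34, the sialomucin that marks hematopoietic stem and progenitor cells, had 14009, 13764 and 12518 normalized counts with the inhibitor and 9719, 8446 and 8373 with DMSO. All inhibitor libraries were higher, by 1.52-fold in the means (log2 fold change 0.60 ± 0.10, limma adjusted p = 0.000487). Cd44, the hyaluronan receptor, had 3677, 3939 and 3594 normalized counts with the inhibitor and 2072, 1911 and 1881 with DMSO. It rose 1.91-fold (0.93 ± 0.08, limma adjusted p = 4.21e-06), with little spread within either group. Cd47, whose protein binds SIRPA on phagocytes and restrains engulfment, had 6149, 6930.2 and 6792 normalized counts with the inhibitor and 4969, 4722 and 5033 with DMSO, a rise of 1.35-fold (0.43 ± 0.08, limma adjusted p = 0.00153).

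Cd164, a sialomucin of progenitor cells, fell to 2471 ± 153 normalized counts with the inhibitor, against 2923 ± 175 with DMSO (SD, n = 3 each; limma adjusted p = 0.0315). The call was lost without inhibitor replicate 1 (limma adjusted p = 0.0709) or 3 (0.0737), or without DMSO replicate 2 (0.103) or 3 (0.0637). The scarce Cd109, at 8.25 ± 1.73 with the inhibitor and 3.96 ± 1.52 with DMSO, and Cd99l2, at 73.7 ± 16 and 94.2 ± 8.66, did not pass (limma adjusted p = 0.123 and 0.125).

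Among small surface glycoproteins and complement regulators, Cd52 rose. CD52 is a very short glycopeptide held in the membrane by a lipid anchor on leukocytes. Its transcript had 3583, 4289 and 4549 normalized counts with the inhibitor and 2084, 2199 and 2041 with DMSO, a rise of 1.96-fold (log2 fold change 0.97 ± 0.10, limma adjusted p = 1.35e-05). The groups were well separated; 14.5% of the exon length of Cd52 overlaps another coding gene. Cd24a, the heat-stable antigen, had 1668 ± 161 with the inhibitor and 1610.5 ± 207 with DMSO (limma adjusted p = 0.703). Cd46, a complement cofactor, fell 4.1-fold to 6.29 ± 1.82 normalized counts with the inhibitor, against 25.8 ± 11.7 with DMSO (SD, n = 3 each; limma adjusted p = 0.00252), on 16 and 87 reads. It is the member that reached 10 reads only with DMSO, so its presence in the table rests on the group where it is higher.

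The tetraspanins, which organise other proteins into membrane microdomains, split: of 6, Cd53 and Cd9 rose, Cd82 and Cd37 fell, and Cd81 and Cd151 did not pass. That is 33.3% in each direction, not far from the 23.6% higher and 22.9% lower over all genes. Cd82, a tetraspanin that restrains integrin-dependent migration, had 204, 243 and 248 normalized counts with the inhibitor and 311, 498 and 351 with DMSO. All inhibitor libraries were lower, by 1.67-fold in the means (log2 fold change -0.71 ± 0.16, limma adjusted p = 0.00362). Cd37 fell to 867 ± 101 with the inhibitor, against 1036 ± 37.8 with DMSO (limma adjusted p = 0.0399), and its call was lost without inhibitor replicate 1 (0.116) or 2 (0.151) or without DMSO replicate 1 (0.0692) or 3 (0.128), and with DESeq2 (0.0556). Both rises were larger without DMSO replicate 2. Cd53, a pan-leukocyte tetraspanin, had 2769, 3437 and 3152 normalized counts with the inhibitor and 1636, 3006 and 1576 with DMSO. DMSO replicate 2 lay inside the range of the inhibitor libraries, and the log2 fold change was 0.65 ± 0.20 with all libraries (limma adjusted p = 0.0179) and 0.95 without that library (3.7e-06). The call on Cd53 was lost without inhibitor replicate 2 (0.0862) or 3 (0.0503) or without DMSO replicate 1 (0.0674) or 3 (0.0689), and with DESeq2 (0.149). Cd9 behaved alike: it had 633, 780.3 and 721 normalized counts with the inhibitor and 377, 713 and 470.3 with DMSO (log2 fold change 0.50 ± 0.18, limma adjusted p = 0.043). Without DMSO replicate 2 its log2 fold change was 0.75 (limma adjusted p = 0.000187), and the call was lost without inhibitor replicate 1 (0.0507), 2 (0.159) or 3 (0.0988) or without DMSO replicate 1 (0.172) or 3 (0.104), with edgeR (0.0857), and with TMM or upper-quartile factors. Cd81 had 2996 ± 251 with the inhibitor and 2608 ± 159 with DMSO (limma adjusted p = 0.0859), and Cd151 had 466 ± 43.3 and 403 ± 52.6 (0.16). Cd81 passed without inhibitor replicate 3 (0.0265).

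Of 5 molecules of co-stimulation, 2 rose and 1 fell, beside 23.6% and 22.9% of all genes. CD83 marks maturing dendritic cells. Its transcript had 79.7, 95.1 and 143 normalized counts with the inhibitor and 18.8, 75.1 and 17.7 with DMSO. The groups came close only through DMSO replicate 2: the rise was 2.85-fold with that library (log2 fold change 1.77 ± 0.45, limma adjusted p = 0.00675) and 5.82-fold without it (2.43, limma adjusted p = 2.74e-06). With DESeq2 on all libraries Cd83 did not pass (adjusted p = 0.0759). Cd40, the receptor through which T cells activate antigen-presenting cells, was low, at 14.3, 14 and 17.2 with the inhibitor and 1.63, 8.88 and 3.93 with DMSO. It rose 3.15-fold (limma adjusted p = 0.0164) and 5.46-fold without DMSO replicate 2 (0.00218), and its call was lost without inhibitor replicate 3 (0.0546) or DMSO replicate 1 (0.0533). Cd274 encodes PD-L1, the ligand that restrains T cells through PD-1. It had 111, 133 and 136 normalized counts with the inhibitor and 53.8, 133 and 77.6 with DMSO, so DMSO replicate 2 equalled the middle inhibitor library. The log2 fold change of 0.61 ± 0.26 did not pass (limma adjusted p = 0.0771); without DMSO replicate 2 it was 0.95 and passed (0.00108).

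Cd96, a receptor of T and natural killer cells for the poliovirus receptor, had 59.2, 68.5 and 61.3 normalized counts with the inhibitor and 122, 107 and 83.5 with DMSO, a fall of 1.65-fold without overlap (log2 fold change -0.70 ± 0.18, limma adjusted p = 0.00745). Cd28, the co-stimulatory receptor of T cells, was among the 6 members with the highest mean. It had 3841, 4058 and 3538 normalized counts with the inhibitor and 4137, 4253 and 4312 with DMSO. The groups did not overlap, but the log2 fold change of -0.15 ± 0.08 did not pass (limma adjusted p = 0.145). Of 14 markers of T and natural killer cells, 4 were measured (Cd2, Lck, Zap70 and Klrb1c). Their summed level was 81.8 to 99.1 with the inhibitor and 117 to 146 with DMSO, far below the level of Cd28. The sum was lower mainly through Cd2, a member that fell, with means of 51.6 with the inhibitor and 106 with DMSO. Lck (18.6 with the inhibitor and 11.9 with DMSO) and Klrb1c (14.4 and 6.27) had higher means with the inhibitor. Zap70 had a lower one (4.55 and 9.49), and Lck, Klrb1c and Zap70 did not pass. Of 10 B-cell markers 1 was measured, Cd79b.

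In the SLAM and CD2 family, adhesion receptors that bind one another between leukocytes, 2 of 4 rose and 1 fell (23.6% and 22.9% over all genes). Cd2, which binds CD48 in the mouse, had 57.2, 50.3 and 47.4 normalized counts with the inhibitor and 113, 107 and 96.2 with DMSO. It fell 2.05-fold (log2 fold change -1.02 ± 0.17, limma adjusted p = 0.000436), and the groups were clearly apart. Its ligand Cd48 had 1807, 2091 and 2269.6 normalized counts with the inhibitor and 1843, 1643 and 1664 with DMSO. These groups overlapped, and the log2 fold change of 0.26 ± 0.10 only just passed (limma adjusted p = 0.0463). The call was lost without inhibitor replicate 2 (0.137) or 3 (0.147), without DMSO replicate 2 (0.0991) or 3 (0.128), with edgeR (0.061), and with TMM or upper-quartile factors. Cd84, a receptor that binds itself on neighbouring cells, rose 1.51-fold, to 549 ± 68.7 with the inhibitor, against 363 ± 31.6 with DMSO (limma adjusted p = 0.00141). Cd244, the other receptor of CD48, had 1055 ± 87.1 with the inhibitor and 1147 ± 78 with DMSO (limma adjusted p = 0.291). Cd244, Cd48 and Cd84 share a stretch of mouse chromosome 1 with Ly9, which fell (log2 fold change -0.31 ± 0.10), and Slamf7, which rose (1.08 ± 0.38). Beside these 3 members, 11 genes were measured within 200 kb, of which 3 rose and 1 fell (23.6% and 22.9% over all genes). The other risen genes were Tstd1 (0.86 ± 0.29) and the scarce Pvrl4, with means of 13.4 with the inhibitor and 2.99 with DMSO. The call on Tstd1 was lost without inhibitor replicate 3 (0.123) or without DMSO replicate 1 (0.0927) or 3 (0.0505). The call on Ly9 was lost without inhibitor replicate 1 (0.0814) or 2 (0.0624) or without DMSO replicate 1 (0.055) or 2 (0.091). The call on Slamf7 was lost without inhibitor replicate 2 (0.0966) or 3 (0.117), without DMSO replicate 1 (0.121) or 3 (0.106), and with edgeR (0.0838) or DESeq2 (0.0647), and its rise of 1.93-fold was 3.18-fold without DMSO replicate 2.

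Antigen receptor components and co-receptors of lymphocytes were scarce. Cd5, an inhibitory receptor of T cells and some B cells, fell to 119 ± 11.5 with the inhibitor, against 155 ± 10.6 with DMSO (SD, n = 3 each; limma adjusted p = 0.0409). The call was lost without inhibitor replicate 1 (0.0876) or 2 (0.136) or without DMSO replicate 2 (0.0864) or 3 (0.126), and with DESeq2 (0.109). Cd79b, the beta chain that signals for the B-cell receptor, had 15.8 ± 5.88 with the inhibitor and 26.3 ± 2.04 with DMSO (limma adjusted p = 0.0634), and Cd7, an immunoglobulin-family antigen of T and natural killer cells, had 17.2 ± 14.1 and 30.8 ± 11.7 (0.113). Both passed as lower without inhibitor replicate 3 (0.0192 and 0.0104). The lipid-presenting Cd1d1 had 181 ± 30.2 with the inhibitor and 213 ± 29 with DMSO (limma adjusted p = 0.216), with 19.1% of its 50-base stretches shared, all with Cd1d2. Cd320, the receptor for vitamin B12 bound to transcobalamin, had 361 ± 40.6 and 352 ± 46.8 (0.824).

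**Figure D4:**
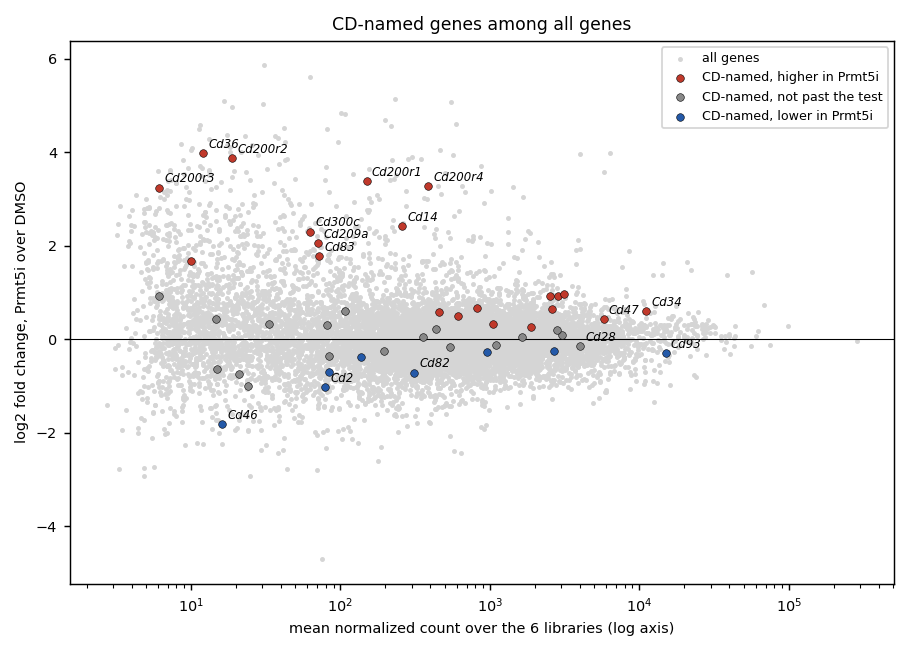
Log2 fold change, inhibitor (Prmt5i) over DMSO, against the mean normalized count over the 6 libraries (log axis), for all 11644 genes in pale grey and the 47 CD-named genes as outlined points, red where higher, blue where lower and dark grey where not past the test. The members with changes above 2 on the log2 scale lie in the lower part of the range of means, whereas Cd34 and Cd93, with the highest means, moved by 0.60 and -0.30.

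To compare levels between genes, normalized counts were divided by the exon length of each gene in kb. On this scale Cd52 stood first with the inhibitor, at 3488 ± 421 normalized counts per kb, and second to Cd93 with DMSO, at 1776 ± 68.7. Cd93 had 2013 ± 92.8 per kb with the inhibitor and 2477 ± 229 with DMSO (SD, n = 3 each). Cd34 (1842 ± 109.7 and 1213 ± 104), Cd53 (1791 ± 192 and 1189.9 ± 464) and Cd48 (1729 ± 196 and 1444 ± 92.3) followed. In DMSO the libraries of Cd53 spread widely and overlapped those of Cd34, Cd48 and Cd52 on this scale, so its place among them is not clear, whereas every library of Cd93 lay above those of the others. Cd14 moved to place 17 of 47 with the inhibitor, against place 27 with DMSO, Cd200r4 to 16 against 28, and Cd200r1 to 26 against 39.

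DMSO replicate 2 stood apart from the other DMSO libraries for many of the risen members. Of the 21 risen members it was the highest DMSO library for 13, or 61.9%, with a median of 0.44 on the log2 scale above the mean of the other DMSO libraries. Over the 2753 genes that rose it was the highest for 44.7%, with a median of 0.04, and over all genes for 34.8%, with a median of -0.01. Its part in the member results was measured by leaving it out: 21 members then rose and 5 fell, where 23.6% of all genes rose and 22.3% fell.

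**Figure D5:**
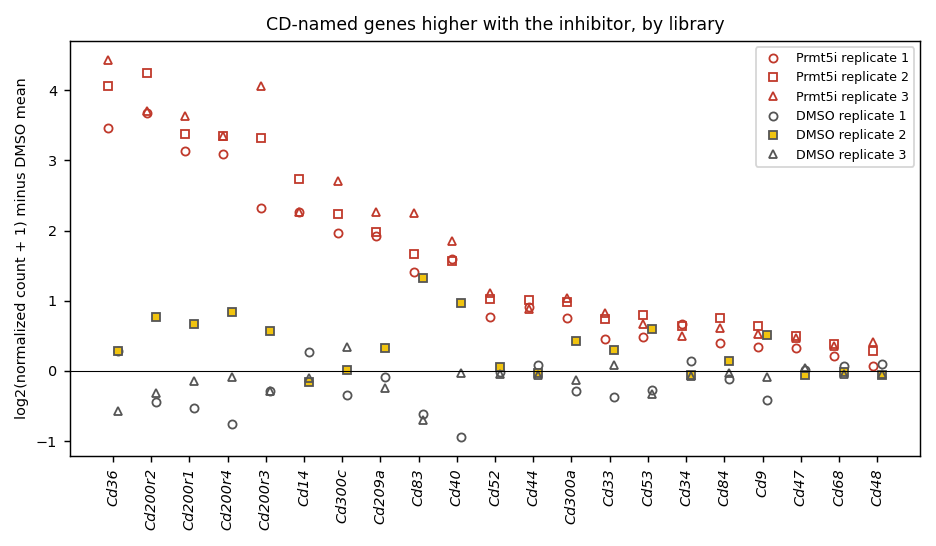
For the 21 CD-named genes that were higher with the inhibitor, log2(normalized count + 1) of each library minus the mean of the DMSO libraries; inhibitor (Prmt5i) libraries are left of DMSO libraries within a gene, and DMSO replicate 2 is filled yellow. DMSO replicate 2 lies among the inhibitor libraries for Cd53 and Cd9 and just below them for Cd83, and near 0 for Cd52, Cd44 and Cd47.

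The wider set of surface antigens with a CD number but another gene symbol was described from a list of 246 genes, of which 161 were measured. Of these, 74 rose and 28 fell, or 46% and 17.4%, with a median log2 fold change of 0.38, beside 23.6% and 22.9% over all genes. The number of fallen genes was 17 without DMSO replicate 3. Some genes of that list reached 10 reads in 1 group only. Tnfsf4 had 47 reads over the inhibitor libraries and 1 over the DMSO libraries, and Adgre5 had 9 and 42. The presence of such genes in the table rests on the group where they are higher, and they were not left out of these counts. Among the 96 listed genes with a mean of at least 100 normalized counts, 44 rose and 21 fell, beside 22.9% and 25.9% of the genes at that level. Adam8 (CD156a), a membrane metalloprotease of leukocytes, had 7414, 7555 and 7809 normalized counts with the inhibitor and 436, 584 and 459 with DMSO, a rise of 15.4-fold (limma adjusted p = 1.4e-09). The complement C5a receptor C5ar1 (CD88) rose 16.3-fold, to 83 ± 13 against 5.09 ± 2.61, and the aminopeptidase Anpep (CD13) 8.08-fold, to 94.6 ± 16.8 against 11.7 ± 1.09. The scavenger receptor Msr1 (CD204) rose to 184 ± 40 with the inhibitor, against 9.15 ± 3.61 with DMSO. These 4 had the largest rises among genes of that list with a mean of at least 50 in the higher group and no overlap. The list does not hold every CD-numbered antigen: Sdc1 (CD138), kept as a plasma cell marker instead, rose 12.8-fold to 59.4 ± 6.69 with the inhibitor, against 4.66 ± 3.29 with DMSO (limma adjusted p = 8.7e-05). Flt3 (CD135), a growth factor receptor of progenitors, had 3670.2, 3725 and 3685 normalized counts with the inhibitor and 8926, 7486 and 7767 with DMSO, a fall of 2.18-fold (limma adjusted p = 2.55e-06). Thrombomodulin, Thbd (CD141), fell 2.61-fold to 886 ± 34.3 against 2311 ± 155, the adhesion ligand Icam2 (CD102) 2.51-fold to 322 ± 6.4 against 809 ± 109, and the TNF receptor family member Tnfrsf14 (CD270) 2.41-fold to 89.2 ± 12 against 215 ± 29. Ptprc, which encodes the pan-leukocyte antigen CD45, had 6867 ± 251 with the inhibitor and 6899.7 ± 413 with DMSO (limma adjusted p = 0.962). Among 10 progenitor genes, of which Cd34 is one, 2 rose and 3 fell, or 20% and 30%. Those shares are not far from the 23.6% and 22.9% over all genes. Among 18 measured myeloid markers 11 rose and 4 fell, or 61.1% and 22.2%, so the fallen share was near that over all genes. Of 8 megakaryocyte markers 3 were measured, with a summed level of 276 to 477 with the inhibitor and 96.2 to 165 with DMSO. Most of that sum is Vwf, with means of 347 with the inhibitor and 120.3 with DMSO. Itga2b (29.8 and 6.79) also rose, and Gp9 (16.2 and 6.67) did not pass. Vwf is also 1 of the 3 measured endothelial markers, and the others, Pecam1 (3801 and 3240.5) and Cdh5 (12 and 8.72), did not pass. Both measured eosinophil or basophil markers of 7 fell, with a summed level of 60.3 to 80.7 with the inhibitor and 112 to 138 with DMSO: Siglecf by 0.71 ± 0.18 and Mcpt8 by 1.42 ± 0.34 on the log2 scale. Of 7 plasma cell markers 2 were measured, Sdc1 being one, with a summed level of 2036 to 2418 with the inhibitor and 2196 to 2634 with DMSO. Nearly all of that sum is Xbp1 (2185 with the inhibitor and 2371 with DMSO), which did not pass. The part of these cell types in the member results was not tested.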

How the data were processed

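Per the labels' protocols, stranded libraries of polyadenylated RNA were prepared from MLL-ENL/NrasG12D cells, 3 from inhibitor-treated and 3 from DMSO-treated cells, grouped by sample title. Build mm10 and the tools DESeq 1.16.0, HTSeq 0.6.0, TopHat2 2.0.10 and CASAVA 1.8.2 appear in the submitters' processing notes. How multiply mapping reads were treated, which annotation was used and whether strand was counted is not given in the sources. The authors deposited a normalized signal per gene: read counts that they had divided by a size factor per library. The unit follows from the values themselves: in every library 100% of them are whole multiples of 1 step (tolerance 1e-06), and median-of-ratios factors from the recovered reads equal the inverse of the steps (0.7151 to 1.2388). Recovered reads ran from 11335948 to 19197912 per library, which limits precision for low genes.

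For each gene log2(value + 1) was tested between groups by limma-trend (version 3.58.1 of limma in R 4.3.3), over all 11644 genes, without a block, two-sided, with Benjamini-Hochberg adjustment at 0.05 and 4 residual degrees of freedom; this scale understates changes of low genes. The script was tested on simulated data in which far fewer genes changed than were called here. That run does not measure error rates in these data. Libraries of a group differed beyond sampling noise (chi-square per degree of freedom 9.43 to 20.73). Folds are ratios of group means. Exon lengths and coordinates come from GENCODE M21 on mm10, promoters from RefSeq GRCm38.p6.

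The members, roles, lists and tests were chosen with earlier results of these data known. Per-library values were given for the 12 members with the largest absolute log2 fold change past the threshold (mean of at least 50 in the higher group, no overlap), the 6 with the highest mean and a set fixed by name (of those measured: Cd14, Cd33, Cd34, Cd36, Cd44, Cd47, Cd48, Cd68, Cd93 and Cd274); per-library values of further members were given after they were seen. From the list of other CD genes, the 4 largest rises and falls under the same conditions were named. Alternatives were edgeR 4.0.16 and DESeq2 1.42.0 on the recovered reads, TMM and upper-quartile factors, pseudocounts of 0.5 and 5, a minimum mean of 100, the omission of each library in turn, a required change of 2-fold and a replicate block. edgeR on the recovered reads called 5412 genes. Marker lists of plasma, erythroid, megakaryocyte, mast, eosinophil or basophil, endothelial, fibroblast and epithelial cells had 2 of 7, 0 of 10, 3 of 8, 2 of 9, 2 of 7, 3 of 7, 1 of 7 and 2 of 6 genes measured.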

Additional observations from a re-analysis of the deposited data

How the results depend on the processing

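The counts of called members, 29 in all with 21 higher and 8 lower, stayed within 1.5 times under both other scalings (27 each), both pseudocounts, edgeR (27) and DESeq2 (25). Of the 29 called members, 23 were also called under all of these and with the replicate block, and 21 (17 higher, 4 lower) whichever library was left out. With a minimum mean of 100 normalized counts, 19 members were called (14 higher, 5 lower), as fewer genes were tested, and 44 other CD genes were higher. With a 2-fold minimum, 12 members (10 higher, 2 lower), 1188 genes in all, and 43 higher and 9 lower other CD genes were called. With a library left out, the counts ran from 22 to 26 members called, 18 to 21 higher and 4 to 8 lower, 4145 to 5346 genes in all, and 61 to 84 higher and 17 to 26 lower other CD genes. Cd24a and Cd320, which never passed, changed sign, with log2 fold changes of -0.06 to 0.13 each. Same-numbered libraries were not taken as paired: their deviations from the group means correlated at 0.165, 0.05 and 0.205, each library correlating best with its own number. With the replicate block 31 members were called, as were 5932 genes in all. Cd274 (limma adjusted p = 0.0179) and Cd79b (0.0497) passed with the block and not without it; no other member's call changed. Log2 fold changes of genes with few DMSO reads moved with the pseudocount, that of Cd36 between 2.32 and 4.6 and that of Cd200r3 between 1.59 and 3.99. Depth limits what can be said of members under about 10 reads per library.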
